A study of Sus scrofa with 18 samples.

Results

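Of 140 array positions measured in the long back muscle of growing pigs, 47 (33.6%) rose from birth to 5 months of age by at least a set threshold. These 47 rising positions are described here. A position is a spot address that is printed in 4 repeats on the array, and the files give it a grid identifier but do not pair it with a gene. A position was counted as rising if its change from birth to month 5, averaged over both breeds, was 0.2 or more on the log2 scale. Ratios were centred on each array's median, so a change shared by most of the 140 positions would not be seen. The change was computed from the ratios of the 12 arrays that compared ages within a breed, so the positions were chosen by these ratios, which are given without a test. Of the other 93 positions, 40 fell by 0.2 or more and 53 did neither.

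RNA came from longissimus dorsi of Landrace, a lean pig breed, and of the Taihu pig, a fat breed, at ages of 0, 1, 2, 3, 4 and 5 months, with month 0 the newborn piglet. In each breed 6 arrays formed a loop: 5 arrays set a month against the preceding one, and a sixth closed the loop with month 0 in Cy3 and month 5 in Cy5. A further 6 arrays set Landrace, labelled with Cy3, against Taihu, labelled with Cy5, at the same month. No treatment or genetic change is given for any group. How many animals stand behind each RNA is not given in the sources used here, so the spread in the tests of ratios below is that between hybridisations. Where a slope over the months is tested, the spread also holds differences between the RNAs and any departure from a straight line.

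As background, skeletal muscle of the newborn pig is not yet mature. After birth its fibres grow, forms of the contractile proteins made before birth are replaced by adult forms, and the energy metabolism of the fibres changes with their type. Fat within and between the fibre bundles also builds up, and lean and fat breeds are known to differ in how much. Without gene names none of these processes can be tied to a position, and markers of muscle or of other cell types could not be looked up. In RNA from whole tissue, a change in the share of a cell type and a change of RNA per cell cannot be told apart.

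In at least 1 of the 2 dyes, all 47 rising positions were above background on all 18 arrays. The other dye of an array may have been near background. The median signal of an array ranged from 742 to 2063 units and was 5.48 to 13.9 times the local background. Of the 47, 37 were never saturated, meaning that no array had the median pixel of 2 or more of the 4 repeated spots at the scanner's ceiling. The other 10 were saturated on at least 1 array, against 5 of the 93 positions that did not rise. The rising positions had a median signal of 801 units and the others one of 1179 units. Of the 70 positions in each of the upper and the lower grid row, 25 and 22 rose.

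The change that chose the positions ranged from 0.20 to 4.32 log2 units, with a median of 0.54 (1.46-fold). It was 1 or more at 14 positions and 2 or more at 6. Of the 14, 8 were never saturated. The lowest member had a change of 0.202 and the highest position outside the group one of 0.1996, so that the group has no natural border. Over the 4 repeated spots the change had a median SD of 0.12, and 37 of the 47 reached 0.2 in every repeat.

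The values of each breed describe the choice, since their mean made it. The median change was 0.67 in Landrace and 0.61 in Taihu. The change was above 0 in both at 43 positions and at least 0.2 in both at 36. Landrace alone was below 0 at 1 position and Taihu alone at 3. Ranges overlapped widely, from -0.095 to 4.63 in Landrace and from -0.20 to 4.00 in Taihu. The arrays of month 0 against month 5 alone gave a rise at 43 of the 47 in each breed, while the 5 monthly steps summed to a rise at 31 in Landrace and 29 in Taihu. The direct array has 5 times the weight of the summed steps in the change, which cancels the dye. Neither part alone is free of the dye: the summed steps carry it 5 times, and the direct array carries it with the opposite sign. These counts of each part thus mix age with dye.

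**Figure D1:**
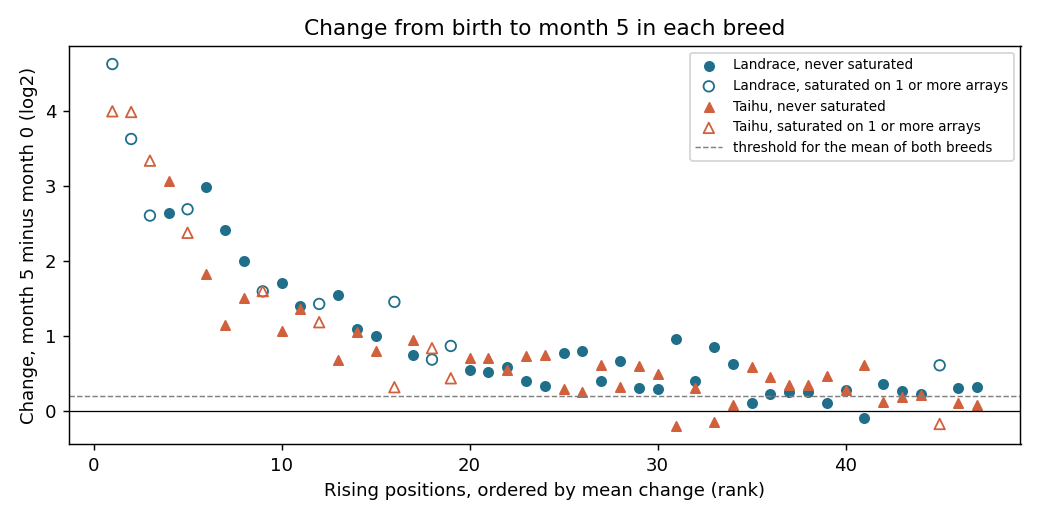
Change from birth to month 5 of the 47 rising positions on the log2 scale, ordered by the mean of both breeds, with Landrace as circles and Taihu as triangles. Open symbols mark the 10 positions saturated on at least 1 array, and both breeds lie above 0 at 43 positions.

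The next question was how these positions behaved on the 6 arrays that compared the breeds, none of which the choice had used. On each of these arrays the mean log2 signal of both dyes was taken relative to the array's median, and its slope over the 6 months was tested with limma. No rising position passed an adjusted p of 0.05 by this test, and none of the 140 did in the upward direction (0% called). At an unadjusted p under 0.05, 6 positions sloped up, and all 6 belonged to the 47. None of the 47 sloped down at that level, while 4 of the others did.

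The direction of the slope went with the size of the change. Of the 47 rising positions 29 sloped up, against 11 of the 93 others. The median slope was 0.024 log2 units per month for the rising positions and -0.10 for the others. Among the 14 positions with a change of 1 or more 12 sloped up, and among the 33 smaller ones 17 did. Counting only positions never saturated, 8 of the 8 with a change of 1 or more sloped up, as did 16 of the 29 smaller ones. With quantile normalization between the arrays 37 of the 47 sloped up, and the median slope of all 140 positions was -0.016 per month in place of -0.070. With the Landrace signal (Cy3) alone 31 of the 47 sloped up and their median slope was 0.058, while with the Taihu signal (Cy5) alone 20 did and the median was -0.055. The 93 others shifted too, with medians of -0.083 for Cy3 and -0.16 for Cy5, so the rising positions lay above them in both. Dye and breed cannot be told apart in this.

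**Figure D2:**
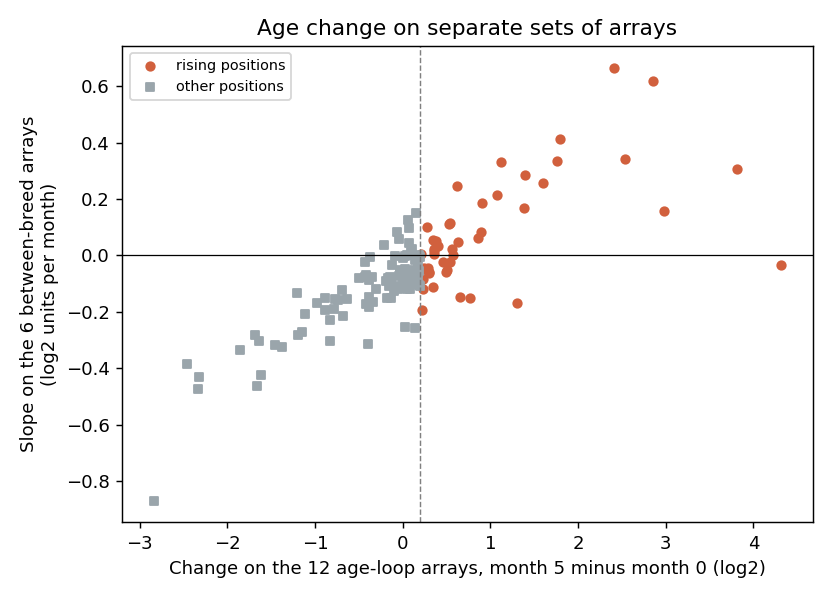
Slope of the mean log2 signal over the 6 between-breed arrays, in log2 units per month, against the change on the 12 age-loop arrays, for the 47 rising positions and the 93 others. The dashed line is the threshold of 0.2, and 12 of the 14 rising positions with a change of 1 or more lie above a slope of 0.

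Sr01Sc01R09C05 had the steepest upward slope of the 47. Signals in units are not scaled between arrays, and the median signal of the 6 arrays ranged from 742 to 1738 units. In Landrace its signal above background was 1137, 3219, 5894, 11520, 15820 and 28850 units at months 0 to 5. In Taihu it was 1185, 4367, 6264, 9505, 13810 and 29120 units. On these arrays both breeds had their lowest value at birth and their highest at month 5. Relative to the array median the mean level also was lowest at month 0 and highest at month 5, but it was 3.31 at month 4, below the 3.60 of month 3. Relative to the array median the level at month 5 was 12.6-fold that at month 0, with a slope of 0.67 ± 0.11 log2 units per month (SE, 6 arrays, limma adjusted p = 0.0584). On the loop arrays the change of this position was 2.99 in Landrace and 1.83 in Taihu. The breeds' fitted changes differed by 0.77 ± 0.25 (SE, limma adjusted p = 0.0387). The loop arrays gave month 0 signals of 3021 and 2807 units in Landrace and of 1271 and 1150 units in Taihu, a gap that the between-breed array of that month did not show. Without the month 3 array its slope was 0.65 ± 0.090 (SE, 5 arrays), and it passed the threshold (limma adjusted p = 0.0333), as the only one of the 47. Leaving out any other of the 6 arrays gave no call. With quantile normalization of all 6 arrays its slope was 0.71 and did not pass (limma adjusted p = 0.119).

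Sr01Sc01R05C09 had the largest change among the positions never saturated, 2.65 in Landrace and 3.07 in Taihu, and followed another course. Its signal in Landrace was 508 units at month 0 and 1516 at month 1. It was 7434 at month 2 and then 7476, 8211 and 8520. The Taihu signals were 192, 1450, 4981, 4048, 4707 and 6986 units. In both breeds the largest differences lay between birth and month 2, after which the Landrace signals differed little. The slope was 0.62 ± 0.19 (SE, 6 arrays, limma adjusted p = 0.393), and the level at month 5 was 10.7-fold that at month 0. Relative to the array median the levels were -1.09, 0.76, 2.41, 2.77, 2.15 and 2.33 in the order of the months. This course is not a straight line, and the SE of the slope includes that departure.

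The largest changes of all belonged to saturated positions, for which the month 5 signal is cut off at the ceiling and the fold depends on how arrays are scaled to each other. Sr02Sc01R06C05 had 7308 units in Landrace and 6602 in Taihu at month 0 on the between-breed arrays. At month 1 it had 47520 and 56840 units, and at month 5 both signals were at the ceiling. On these arrays month 5 over month 0 came to 4.64-fold relative to the array median and to 5.72-fold after quantile scaling of the arrays. Over all 18 arrays the quantile scaling gave 8.58-fold.

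Sr01Sc01R05C08 had the highest value of the choosing measure, 4.32, and the sets of arrays differed most here. On the between-breed arrays it gave 35330 units in Landrace and 26110 in Taihu at month 0, and both breeds were at the ceiling from month 1 on. On these arrays month 5 over month 0 was 1.03-fold relative to the array median and 1.13-fold after quantile scaling, and no size of the change can be read from them. The month 0 signal was 2414 units in Landrace and 2745 in Taihu on the arrays that set month 0 against month 5. On the remaining arrays it lay between 22200 and 46220 units. The direct arrays, which carry most weight in the choice, thus gave far lower month 0 signals than any other array. Why those signals differ was not tested.

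**Figure D3:**
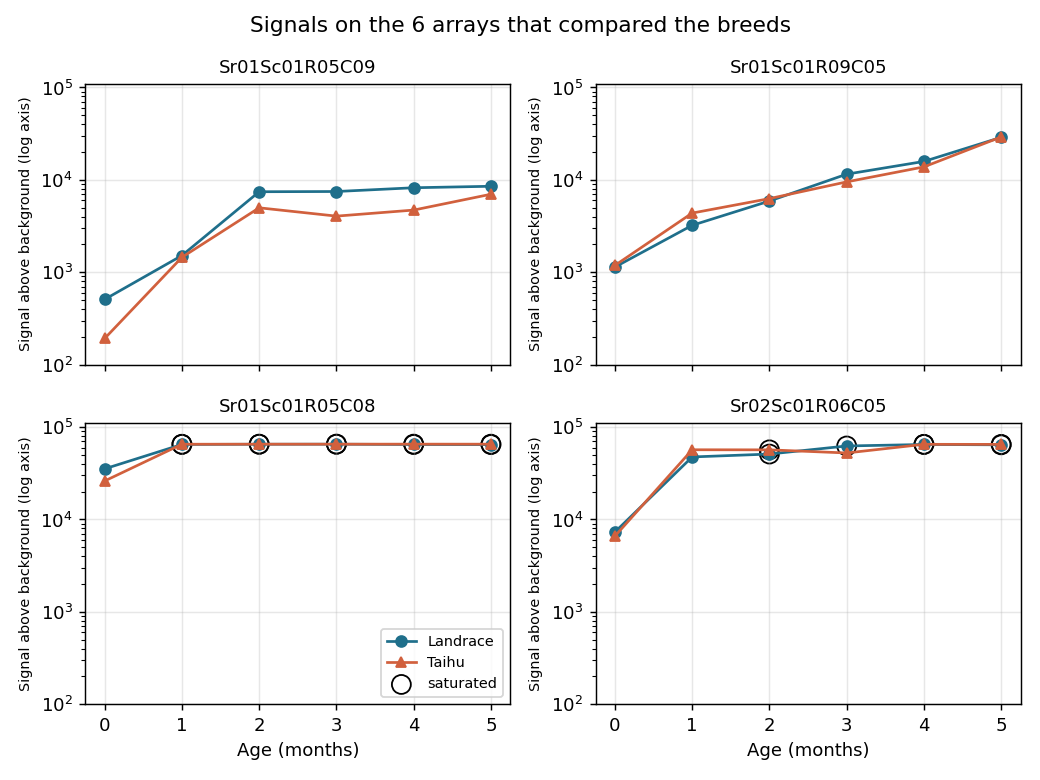
Signal above background by age on the 6 between-breed arrays, on a log axis, for the 2 positions with the largest change that were never saturated (top) and the 2 largest saturated ones (bottom), with Landrace as circles and Taihu as triangles. Rings mark saturated signals, which Sr01Sc01R05C08 reached from month 1 on.

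Month 5 was also set directly against month 0 on these arrays. The mean of both dyes was higher at month 5 at 26 of the 47 rising positions and at 13 of the 93 others. In Landrace 27 of the 47 were higher and in Taihu 21, with 19 higher in both breeds and 18 lower in both. The median difference was 0.088 log2 units for the rising positions and -0.52 for the others. The ranges overlapped, with -1.06 to 3.65 among the rising and -4.60 to 0.88 among the others. The -1.06 was that of Sr01Sc01R07C08, which was saturated on all 18 arrays. Of the 37 rising positions never saturated, 20 were higher at month 5 in the mean of both dyes. In both breeds 15 of them were higher and 14 lower, and their lowest difference was -0.82. Each month has 1 array here, so these differences have no replicate check.

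The second question was when the rise took place. For this the log ratios of all 18 arrays were fitted on the 12 combinations of breed and month with a dye term. In this fit the steps averaged over the breeds rest on the 12 loop arrays alone. Apart from the normalization, their sum is the change that chose the positions. Steps of the 47 that lie above those of all 140 thus follow from the choice, and only their division over the months is described. Averaged over the breeds, the median fitted step of the 47 positions was 0.15, 0.13, 0.094, 0.067 and 0.094 log2 units for the 5 steps in order of age, with -0.0049, -0.0068, 0.014, 0.024 and 0.046 over all 140 positions. The step into month 1 was the largest at 13 positions and the step into month 2 at 18. The 3 later steps were the largest at 7, 6 and 3. Of the 37 positions never saturated, 14 had their largest step to month 2 and 7 theirs to month 1.

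Few positions rose without a pause. The fitted level went up at all 5 steps at 11 positions, at 4 steps at 17, at 3 steps at 15 and at fewer steps at 4. The highest level was reached at month 5 by 27 positions, at month 4 by 9, and earlier by 11. At 11 positions the highest level was at least 0.2 log2 units above that at month 5. The lowest level was that at birth for 30 positions, at month 1 for 9, at month 2 for 5 and later for 3. A choice by month 5 over birth favours a lowest level at birth and a highest at month 5. After the loess step of the fit the change from birth to month 5 was 0.2 or more at 35 of the 47 and below 0 at 2, with a lowest value of -0.14. This change comes from the same loop arrays that chose the positions, so it is not a separate check.

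**Figure D4:**
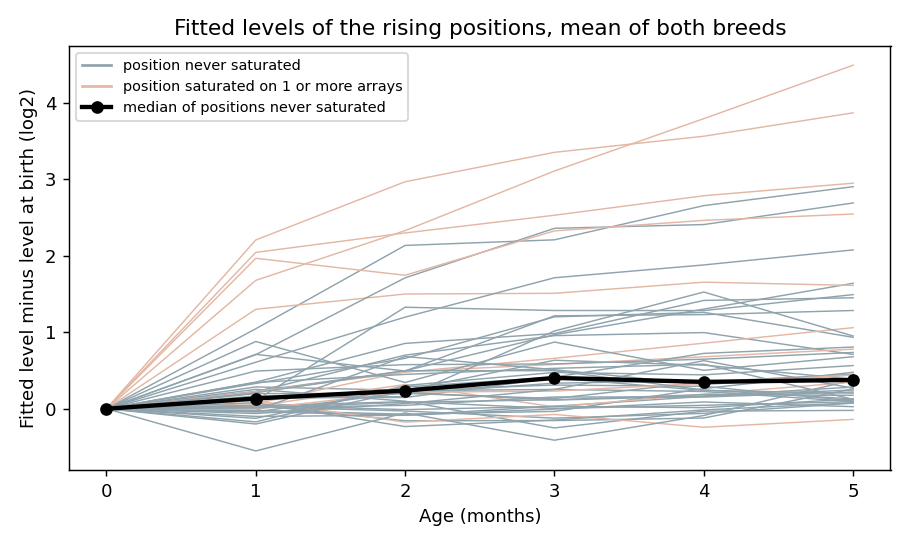
Fitted level of each of the 47 rising positions by age, averaged over the breeds and given as the log2 difference from birth. The black line is the median of the 37 positions never saturated, which was 0.13 at month 1, 0.40 at month 3 and 0.38 at month 5.

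Whether the 5 steps of a position were unequal was tested with limma's moderated F, which does not depend on their sum. Of the 47 positions 23 passed (48.9%), against 54.3% of all 140, so uneven change was about as frequent here as in the whole set. At 17 of the 23 the first 2 steps exceeded the last 2 (36.2% of 47, with 25% of all 140), and at 6 they were smaller (12.8% of 47, with 29.3% of all 140). The sign of this difference depends on the direction of change, so the shares of all 140 mix rising with falling positions. Of the 40 falling positions, 8 passed with the first 2 steps above the last 2 and 25 with them below. Without the dye term 11 of the 47 passed. Both breeds' arrays of a step leave no residual of their own for the mean step, so an error that they share is not measured by this test.

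Sr01Sc01R04C07 had its largest step to month 2. In Landrace the log ratios of each month over the one before were -0.55, 1.47, 0.15, 0.16 and -0.30. In Taihu they were 0.56, 0.75, -0.45, -0.37 and 0.50, so the breeds shared the step to month 2 but not the others (interaction adjusted p = 0.000169). Averaged over the breeds, the fitted step to month 2 was 1.22 ± 0.088 (SE), while the other 4 lay between -0.042 and 0.21 (limma F adjusted p = 0.000224). The between-breed arrays gave 2815, 1708, 12730, 10080, 10660 and 10820 units in Landrace at months 0 to 5. In Taihu they gave 2139, 3394, 12780, 7839, 4941 and 8965 units, so both breeds were higher at every month from 2 on than at months 0 and 1.

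Sr01Sc01R07C03 had smaller first than last steps. Averaged over the breeds, its fitted steps were -0.55, 0.50, -0.36, 0.32 and 0.47 log2 units, each with an SE of 0.052 (limma F adjusted p = 1.05e-05). The breeds differed in their course: the log ratios over the preceding month were -0.86, -0.07, 0.30, 0.23 and 0.40 in Landrace and -0.37, 0.94, -1.14, 0.29 and 0.40 in Taihu. The other position with first steps below the last, Sr01Sc01R02C08, had steps of 0.25, -0.16, -0.35, 0.22 and 0.01 (limma F adjusted p = 0.00262). The first 2 steps minus the last 2 came to -0.13 ± 0.14 (SE) there, so that its steps were unequal without being clearly late. Its fitted change from birth to month 5 was 0.10 ± 0.077 in Landrace and -0.14 ± 0.077 in Taihu (SE). Averaged over the breeds, Sr02Sc01R06C04 had steps of 0.88, -0.54, 0.53, -0.37 and 0.18 (limma F adjusted p = 1.7e-05).

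The third question was whether rising positions differed between the breeds. Averaged over the 6 months, 14 of the 47 were higher in Landrace (29.8%, with 26.4% of all 140) and 7 were lower (14.9%, with 17.9% of all 140) by limma at an adjusted p of 0.05. In either direction this makes 21 of the 47 (44.7%), with 44.3% of all 140, so breed differences were about as frequent here as in the whole set. Among the never saturated of these, differences ran from 0.095 to 0.60 log2 units upward and from -0.14 to -0.31 downward. The median difference was 0.072 over the 47 and 0.032 over the 140. Without the dye term 11 of the 47 passed. Leaving out the between-breed array of month 2, that of month 5 or the Taihu array of months 5 and 4 left 12, 12 and 13.

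Sr02Sc01R04C02 was higher in Landrace. On the between-breed arrays its signal was 268, 351, 618, 406, 600 and 629 units in Landrace at months 0 to 5. In Taihu it was 141, 214, 266, 198, 265 and 473 units, lower at each age. Part of such a gap can be the dye, since Landrace always carried Cy3 on these arrays. With the dye term the mean difference was 0.28 ± 0.039 log2 units (SE, limma adjusted p = 0.000556), with fitted values of 0.27 to 0.43 at months 0 to 4 and -0.019 ± 0.064 (SE) at month 5.

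Sr02Sc01R09C02, with a mean change of 1.76 on the loop arrays, was higher in Landrace only in the fit with the dye term. Its log ratio of Landrace over Taihu on the 6 between-breed arrays was 0.09, 0.04, -0.17, 0.08, 0.56 and -0.05, in the order of the months. The fitted difference was above 0 at all 6 months, from 0.25 at birth to 0.88 at month 4, and its mean was 0.44 ± 0.072 (SE, limma adjusted p = 0.00144). Without the dye term it was 0.092 and did not pass (limma adjusted p = 0.68). The mean differences of Sr01Sc01R07C03, -0.26 ± 0.040 (SE, limma adjusted p = 0.00088), and of Sr02Sc01R06C04, -0.31 ± 0.052 (SE, limma adjusted p = 0.00167), were the 2 named for a lower level in Landrace.

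The breed difference varied with month at 23 of the 47 positions (48.9%) by limma's F, against 58.6% of all 140. The share was below that of the whole set, a gap that was not tested. With each array left out in turn the count of 23 ran from 18 to 31. At Sr01Sc01R07C03 the difference was largest at month 2 and lay near 0 at months 0, 4 and 5. Its log ratio of Landrace over Taihu was -0.12, -0.37, -1.46, 0.13, -0.06 and -0.08 on the 6 between-breed arrays, in the order of the months. The fitted difference was -1.37 ± 0.065 (SE) at month 2, -0.37 ± 0.065 at month 1 and between -0.026 and 0.14 at the other months (interaction adjusted p = 3.8e-06). In Landrace the signals were 708, 1380 and 1582 units at months 1, 2 and 3, while those of Taihu were 950, 2856 and 1157 units, so that Taihu had a peak at month 2 that Landrace lacked.

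The size of the change from birth to month 5 differed between the breeds at 15 of the 47 positions (31.9%), against 35% of all 140. It was larger in Landrace at 8 (17% of 47, with 16.4% of all 140) and smaller at 7 (14.9% of 47, with 18.6% of all 140). The choice of positions had used the mean of both breeds and not this difference. Without the dye term 3 of the 47 passed.

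At Sr02Sc01R06C04 the rise was that of Landrace. On the direct arrays the log ratio of month 0 over month 5 was -1.41 in Landrace and -0.41 in Taihu. The fitted change was 1.18 ± 0.083 in Landrace and 0.18 ± 0.083 in Taihu (SE), a difference of 1.00 ± 0.096 (SE, limma adjusted p = 8.28e-05). On the between-breed arrays its signal was 5618, 15500, 4790, 2415, 19970 and 27080 units in Landrace at months 0 to 5. In Taihu it was 12290, 27640, 5772, 4493, 16540 and 25330 units. Landrace was thus below Taihu at months 0 to 3 and above it at months 4 and 5. The low signals of month 2 and of month 3 were each those of 1 array. At month 3 the loop arrays gave 10340 and 21480 units in Landrace and 25220 and 48100 units in Taihu. At month 2 they gave 10700 and 15530 units in Landrace and 8797 and 20510 units in Taihu. Relative to the array median, the mean level on the between-breed arrays was 1.99 at month 2 and 1.96 at month 3. It was 3.40 or more at the other months.

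Sr02Sc01R08C02 had fitted changes of opposite sign in the breeds. Its fitted change was 0.91 ± 0.13 in Landrace and -0.38 ± 0.13 in Taihu (SE), a difference of 1.29 ± 0.15 (SE, limma adjusted p = 0.000269). This call was lost without the dye term (limma adjusted p = 0.0718). The between-breed arrays gave 252, 316, 313, 149, 1317 and 1038 units in Landrace at months 0 to 5. They gave 462, 395, 395, 156, 651 and 560 units in Taihu. The order of the breeds on these arrays turned between months 3 and 4, as at Sr02Sc01R06C04. The month 3 signals were again low on the between-breed array alone, against 356 and 612 units in Landrace and 423 and 934 units in Taihu on the loop arrays.

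The change was smaller in Landrace at Sr01Sc01R09C02, with 0.20 ± 0.088 in Landrace and 0.69 ± 0.088 in Taihu (SE, difference -0.49 ± 0.10, limma adjusted p = 0.00524). At Sr02Sc01R07C09 it was -0.017 ± 0.060 in Landrace and 0.27 ± 0.060 in Taihu (SE, difference -0.29 ± 0.069, limma adjusted p = 0.0102). The last call was lost under median centring (difference -0.16, limma adjusted p = 0.141). Both calls were lost without the dye term (limma adjusted p = 0.435 at Sr01Sc01R09C02 and 0.657 at Sr02Sc01R07C09). On the between-breed arrays Sr02Sc01R07C09 had 333 units in Landrace and 162 in Taihu at month 5, and 196 in Landrace and 88.6 in Taihu at month 0. Relative to the array median, month 5 minus month 0 was -0.34 log2 units there in Landrace and -0.64 in Taihu, lower at month 5 in both.

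**Figure D5:**
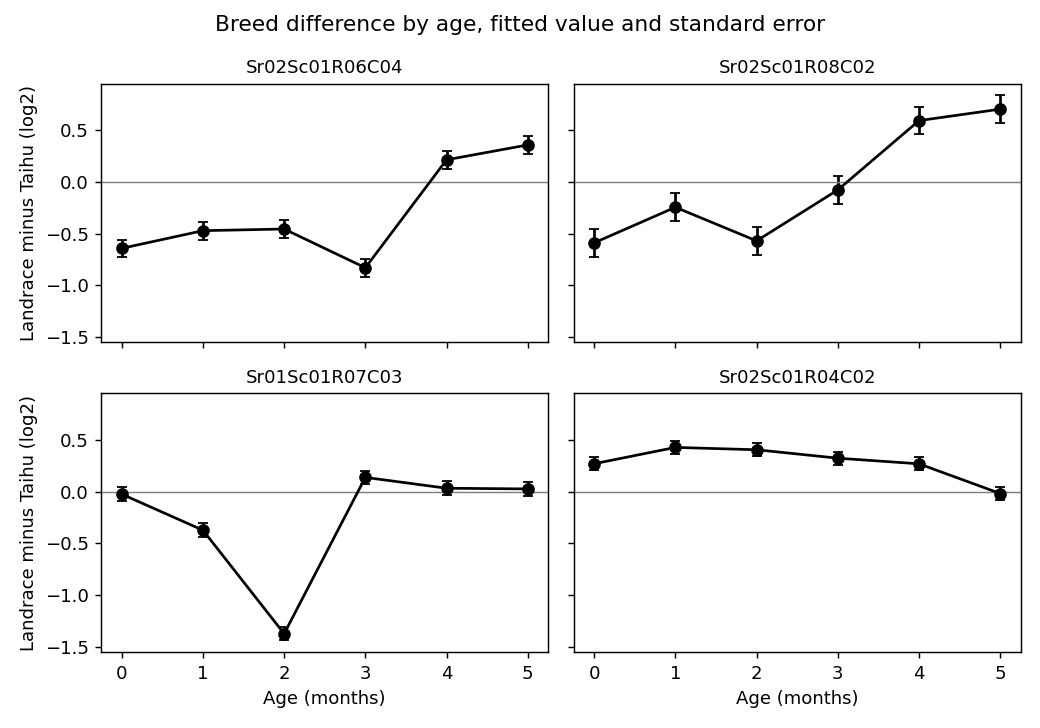
Fitted breed difference, Landrace minus Taihu on the log2 scale, by age at 4 rising positions, with bars of 1 SE. Sr02Sc01R06C04 and Sr02Sc01R08C02 pass above 0 at month 4, Sr01Sc01R07C03 has its lowest value, -1.37, at month 2, and Sr02Sc01R04C02 stays between 0.27 and 0.43 until month 4.

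Across the tests of mean breed difference, interaction, breed difference in the change and uneven steps, 12 of the 47 rising positions passed none and 6 passed all 4. Another 10 passed 1, 9 passed 2 and 10 passed 3. These tests share the same arrays and are not independent.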

How the data were processed

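Spot intensities were deposited by the authors for each dye of the 18 arrays, measured in fixed circles (header version 5.1) and not normalized, per the file headers. RNA was linearly amplified before labelling, per the labels' protocols. The authors also deposited a table of log2-like ratios, whose normalization is not given in the sources used here. It was used as an alternative, after its row order had been found by correlation with the scanner ratios (0.694 to 0.946 per array).

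To choose the positions, the background median was subtracted from the signal mean (floor 50), log2 ratios of Cy3 over Cy5 were centred on each array's median, and repeats were averaged. With S the sum of the 5 month steps and D the ratio of month 0 over month 5, the dye cancels in (S-5D)/6. Row 1 and the first 3 columns of Row 2 were left out, since they hold the same repeated addresses in every block. The positions, lists and tests were chosen with earlier results of these data known.

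For the tests, signals were corrected with normexp (offset 50) and loess in limma 3.58.1 under R 4.3.3, leaving out 12 spots with flag 1 in the deposited files. Ratios were fitted on 12 conditions and a dye term (6 residual degrees of freedom), and slopes on the 6 between-breed arrays (4 residual degrees of freedom). A position was called where p, adjusted by Benjamini-Hochberg over 140 positions, was under 0.05. For saturated positions, arrays were also scaled to each other with limma's Aquantile. The detection filter (2 background SD in either dye on 9 arrays) removed none. The code was tested on simulated data. The number of arrays limits the precision.

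Named were the 2 largest changes among positions never saturated, the 2 largest saturated ones, and per test the 2 smallest adjusted p in each direction. No position passed the slope test, so Sr01Sc01R09C05 and Sr01Sc01R05C09 stand there by size. Gene lists and cell type markers could not be used without gene names. A batch term was not run, as no slide or scan date was given.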

Additional observations from a re-analysis of the deposited data

Results flagged for a closer look

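The change from birth to month 5 differed between the breeds, by limma's test of the difference itself, at the positions named for it. The difference, Landrace minus Taihu, was 1.00 log2 units at Sr02Sc01R06C04, 1.29 at Sr02Sc01R08C02, -0.49 at Sr01Sc01R09C02 and -0.29 at Sr02Sc01R07C09. Of these calls, only that of Sr02Sc01R06C04 was kept without the dye term (limma adjusted p = 0.0434). In every case the change of Landrace stands first and that of Taihu is subtracted from it. At Sr02Sc01R08C02 the fitted change had opposite signs in the breeds, 0.91 in Landrace and -0.38 in Taihu.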

How the results depend on the processing

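Counts are of the 47 rising positions. Without the dye term 11 passed for the mean breed difference, 5 for the interaction, 3 for the breed difference in the change and 11 for uneven steps, against 21, 23, 15 and 23 with it; dye variation then enters the residual. In the ratios that the authors deposited, 21 of the 47 had a value on all arrays, and 4, 8, 6 and 13 of them passed in the same order, against 9, 11, 8 and 12 of those 21 from the scanner signals. With each array left out in turn the counts ran from 12 to 26, 18 to 31, 12 to 19 and 17 to 30. The slope test gave 0 or 1 upward call, the 1 without the between-breed array of month 3. Its other alternatives (background subtraction, quantile normalization, either dye alone, positions never saturated) gave 0. For the named positions 299 repeated tests kept the call, 9 lost it and none turned direction; 6 of the lost calls were without the dye term and 3 were those of Sr02Sc01R07C09. In the tests of ratios the RNAs of an array were compared by their ratio on that array. No further pairing was possible, as each comparison has 1 array and the labels give no replicate numbers. The detection filter removed no position, so leaving it out tests nothing, although its repeats are counted among the 299.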
